A study of Homo sapiens with 15 samples.

Results

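Distal poly(A) site use was compared directly between HEK293T cells with a short hairpin RNA against PABPN1 and HEK293T cells with one against U2AF2. The compared genes were those with a value in all 4 libraries of both knockdowns, which were 12083 of the 13056 genes in the deposited table (92.5%). HEK293T is a human embryonic kidney line that carries the SV40 large T antigen. The groups were shPABPN1 (genotype given as PABPN1 knockdown, 2 libraries), shU2AF2 (U2AF2 knockdown, 2 libraries) and shControl (a control hairpin, 3 libraries). Libraries of 4 further knockdowns, shHDAC1, shPCBP2, shSF3B4 and shZNF384, entered the shared estimate of the spread, which made 15 libraries in 7 groups. The labels name an isolation of nuclear RNA and an extraction of total RNA, followed by oligo(dT) capture, so which RNA the libraries hold is not known. They give no hairpin sequence, no time after transduction, no clone and no separate cultures, so the p-values cover the spread between these samples, which may be technical.

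Most human genes carry more than 1 poly(A) site, and the site at which the transcript is cut sets the length of its 3′ untranslated region. PABPN1 is the nuclear poly(A) binding protein, which coats the new tail and stimulates poly(A) polymerase, and its loss has been reported in other systems to move cleavage toward proximal sites. U2AF2 is the large subunit of U2AF, which binds the polypyrimidine tract ahead of an exon, recruits the U2 snRNP, and has contacts with the 3′ end machinery at the last intron. The measured quantity was PDUI, a fraction that gives the estimated part of a gene's RNA reaching the distal site, so that 1 stands for distal ends alone. PDUI does not measure RNA level, so the depth of either knockdown could not be checked, and the table holds no read counts.

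The distal end of a transcript is usually preceded by the polyadenylation signal, AATAAA or its common variant ATTAAA. The windows below show the signal near the annotated distal ends of genes among the largest differences. Those taken had no other gene over the last exon and the table's own transcript version in the annotation. A signal in the last 50 bases was also required. Each is 30 bases of the transcript strand from the GENCODE release 29 transcripts on hg38, with the signal in capitals. From the signal to the transcript end there were 12 bases in TMEM25 and 15 to 25 in the others. Only the TMEM25 window thus reaches the annotated end. The first 2 genes were lower in shPABPN1 than in shU2AF2, and the other 4 were higher.
TMEM25, chr11:118547251-118547280, plus strand: acaaaataagtaAATAAAgtctatggtatg
FOXD2, chr1:47440659-47440688, plus strand: tggtgtcgattgAATAAAtgtatgtgaact
AGAP1, chr2:236131758-236131787, plus strand: agacctctttctAATAAAgaaatgaaaata
UBR2, chr6:42693468-42693497, plus strand: taaagatatccaAATAAAtgctttaggtgt
CNOT6L, chr4:77713394-77713423, minus strand: tcccctgtaggcAATAAAtggccattttgc
HRK, chr12:116856152-116856181, minus strand: tgtaatgactttATTAAAaaactgattgtg
Since a signal was required, its presence in both directions follows from the choice, and HRK alone of these 6 had ATTAAA. The annotated end may differ from the end the authors used, since 54.9% of the table's transcripts had the same version in this release.

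Distal site use differed between the knockdowns at 977 genes, 8.09% of the 12083 tested. Of these, 392 genes (3.24%) were higher in shPABPN1 and 585 (4.84%) were lower, by limma at a Benjamini-Hochberg adjusted p under 0.05. The median difference, shPABPN1 minus shU2AF2, was 0.155 among the higher genes and -0.145 among the lower genes. At least 0.1 separated the group means at 662 called genes (5.48%), 268 of them higher (2.22%) and 394 lower (3.26%), and at least 0.3 at 45 and 72. The 4 libraries did not overlap at any of the 977 genes, but the background for that is wide, since both shPABPN1 libraries lay above both shU2AF2 libraries at 13.8% of all tested genes and below them at 33.7%. The direction split depended on centring, which takes a constant from each library and raised the difference of every gene by 0.045. With every library centred on its median 533 genes were called (4.41%), of which 402 were higher (3.33%) and 131 lower (1.08%), and with libraries shifted by their median deviation from the gene means, an alternative chosen after seeing the data, 786 were called (6.51%), of which 478 were higher (3.96%) and 308 lower (2.55%).

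**Figure D1:**
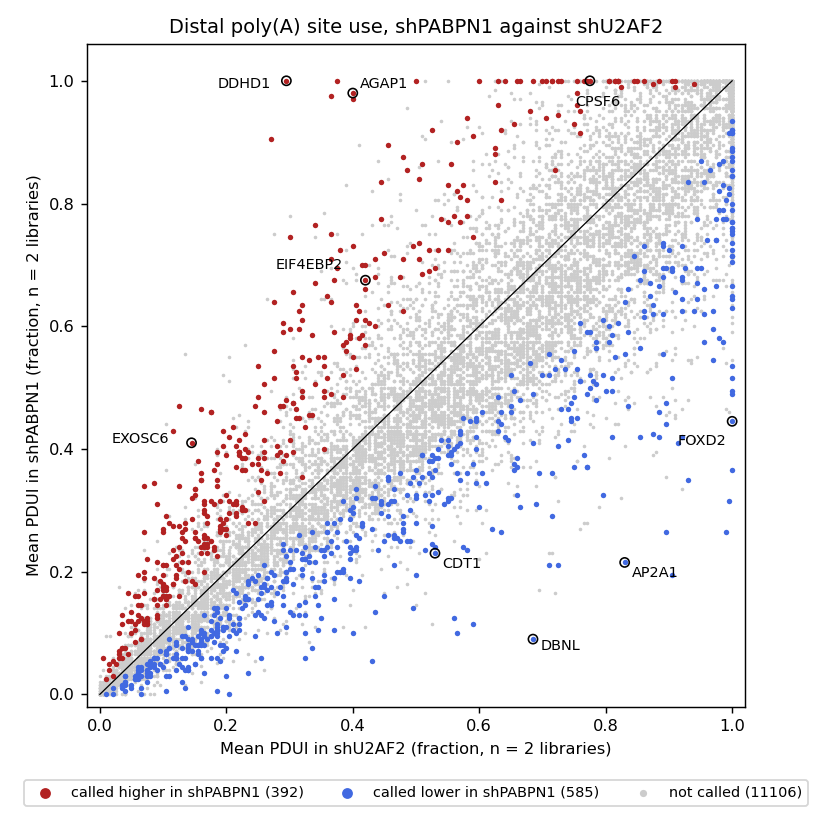
Mean PDUI of each tested gene in shPABPN1 (vertical axis, fraction, 2 libraries) against its mean in shU2AF2 (horizontal axis, fraction, 2 libraries), with the line of equality. Red points are the 392 genes called higher in shPABPN1, blue points the 585 called lower and grey points the genes not called; 585 becomes 131 with libraries centred on their medians.

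The whole distribution lay slightly lower in shPABPN1. The mean PDUI over the 12083 genes was 0.539 and 0.545 in the shPABPN1 libraries, against 0.577 and 0.567 in the shU2AF2 libraries. Both shPABPN1 libraries were below both shU2AF2 libraries, a difference of -0.0303 with an exact two-sided permutation p of 0.333, which is the smallest that 2 libraries against 2 allow. The median gene differed by -0.02, but by 0.025 with libraries centred and by 0.001 with libraries shifted, so a common direction of the median gene was not held across scalings. Replicates correlated across genes at 0.926 in shPABPN1 and 0.937 in shU2AF2, and libraries of different knockdowns at 0.89 to 0.903, as a description over genes that are not independent. The median absolute difference was 0.04 between replicates of either knockdown and 0.06 between the 2 group means.

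The calls rested on the spread shared by all groups. In a fit of the 4 libraries alone limma called 0 genes at an adjusted p under 0.05, with a lowest adjusted p of 0.0666 and 2549 genes at an unadjusted p under 0.05, against 2881 at that level in the fit of all 15. Without shPABPN1 replicate 1 or 2 the count was 592 or 671, and without shU2AF2 replicate 1 or 2 it was 555 or 531. In all 4 of these fits 334 of the 977 genes stayed called, 138 higher and 196 lower. One control library, shControl replicate 1, had a mean PDUI of 0.526, against 0.565 in each of the other 2, and without it 1422 genes were called, 433 higher and 989 lower, among them 967 of the 977.

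The 12 genes with the largest called rise in shPABPN1 over shU2AF2 differed by 0.37 to 0.705. Here and for the genes that follow, a group is said to stand apart among shPABPN1, shU2AF2 and shControl, unless other groups are named. DDHD1, a phospholipase A1 that prefers phosphatidic acid, had a PDUI of 1 in both shPABPN1 libraries, against 0.30 and 0.29 in shU2AF2 and 0.62, 0.70 and 0.66 in shControl. The 3 groups did not overlap, and shControl lay between the knockdowns. The difference was 0.705 (SE 0.042, adjusted p = 4.35e-05), the largest rise of all called genes, although its last exon of 10205 bases (chr14:53036745-53046949) overlaps AL352979.2. Among the other knockdowns, shPCBP2 was also at 1 in both libraries, and shSF3B4 was below shU2AF2, at 0.21 and 0.19. AGAP1, a GTPase-activating protein for Arf proteins, stood at 0.96 and 1 in shPABPN1, against 0.36 and 0.44 in shU2AF2 and 0.86, 0.74 and 0.79 in shControl. Again shControl lay between, nearer to shPABPN1, and the difference of AGAP1 was 0.58 (SE 0.058, adjusted p = 0.0005). The signal near its annotated distal end is printed above. In this gene shPCBP2 was at 1 and 0.87, overlapping shPABPN1.

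SPATA6, needed for the sperm head-tail junction in mice, had values of 1 and 0.95 in shPABPN1, against 0.37 and 0.36 in shU2AF2 and 0.54, 0.78 and 0.56 in shControl. DPYSL3, a collapsin response mediator, had 1 in both shPABPN1 libraries, against 0.57 and 0.63 in shU2AF2 and 0.74, 0.83 and 0.78 in shControl. Both genes had all shControl libraries between the knockdowns, with differences of 0.61 (SE 0.082, adjusted p = 0.00363) for SPATA6 and 0.40 (SE 0.058, adjusted p = 0.00362) for DPYSL3. In DEGS2, a sphingolipid desaturase and hydroxylase, the pattern was another one, with 0.81 and 0.72 in shPABPN1, against 0.32 and 0.36 in shU2AF2 and 0.31, 0.36 and 0.32 in shControl. The shU2AF2 and shControl libraries overlapped here, and shPABPN1 stood above both, by 0.425 over shU2AF2 (SE 0.059, adjusted p = 0.00437). Reads of EVL, which overlaps the last exon of DEGS2, could enter that value. CNOT6L, a catalytic subunit of the CCR4-NOT deadenylase, had 0.84 and 1 in shPABPN1, against 0.51 and 0.54 in shU2AF2 and 0.83, 0.82 and 0.69 in shControl (difference 0.395, SE 0.067, adjusted p = 0.00814).

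The other 6 of these 12 genes were ALG11, MYORG, UBR2, MTMR7, C1GALT1 and HRK, and each lost its call without at least 1 library. ALG11 makes the lipid-linked precursor of N-glycans and C1GALT1 the core 1 O-glycan, UBR2 is a ubiquitin ligase of the N-degron pathway, MTMR7 is of the myotubularin phosphatase family and HRK is a BH3-only activator of cell death. UBR2 had 0.88 and 0.87 in shPABPN1, against 0.54 and 0.42 in shU2AF2 and 0.49, 0.36 and 0.41 in shControl, so that only shPABPN1 stood apart (difference 0.395, SE 0.074, adjusted p = 0.0138). MYORG ran the other way, with 0.97 and 0.82 in shPABPN1, against 0.53 and 0.38 in shU2AF2 and 0.95, 1 and 0.95 in shControl, and there shU2AF2 stood apart (difference 0.44, SE 0.11, adjusted p = 0.0352). Without shPABPN1 replicate 1 the adjusted p of HRK was 0.20, without shPABPN1 replicate 2 that of ALG11 was 0.135, without shU2AF2 replicate 1 that of C1GALT1 was 0.0751, and without shU2AF2 replicate 2 those of UBR2, MYORG and MTMR7 were 0.0902, 0.179 and 0.22. In all, 6 of these genes were not called without shPABPN1 replicate 1, 5 without shPABPN1 replicate 2, 5 without shU2AF2 replicate 1 and 6 without shU2AF2 replicate 2. Last exons of ALG11 and MTMR7 overlap UTP14C and VPS37A.

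The 12 genes with the largest called fall in shPABPN1 against shU2AF2 differed by -0.68 to -0.47. In DBNL, AP2A1 and TMEM25 shU2AF2 was the one of these 3 groups that stood apart. DBNL, a drebrin-like adaptor between actin and endocytosis, had 0.07 and 0.11 in shPABPN1, against 0.68 and 0.69 in shU2AF2 and 0.09, 0.12 and 0.10 in shControl. The shPABPN1 and shControl libraries overlapped, and the difference was -0.595 (SE 0.025, adjusted p = 6.82e-06). AP2A1, the alpha subunit of the clathrin adaptor AP-2, had 0.25 and 0.18 in shPABPN1, against 0.85 and 0.81 in shU2AF2 and 0.07, 0.15 and 0.16 in shControl. Its difference was -0.615 (SE 0.034, adjusted p = 3.14e-05), with the control close to shPABPN1, and shSF3B4 was at 0.80 and 0.81, overlapping shU2AF2. TMEM25, an immunoglobulin-superfamily membrane protein, had 0.21 and 0.32 in shPABPN1, against 0.96 and 0.83 in shU2AF2 and 0.18, 0.16 and 0.16 in shControl (difference -0.63, SE 0.098, adjusted p = 0.00516). The distal end of TMEM25 printed above was thus estimated to be used by most transcripts in shU2AF2 and by 0.32 or less of them in every library of the other 2 groups.

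FOXD2, a forkhead transcription factor, showed the other arrangement. It had 0.44 and 0.45 in shPABPN1, against 1 in both shU2AF2 libraries and 0.99, 0.92 and 0.90 in shControl. Here shPABPN1 stood apart, by -0.555 from shU2AF2 (SE 0.027, adjusted p = 1.37e-05) and by -0.492 from shControl (adjusted p = 4.05e-05), with shPCBP2 next at 0.57 and 0.58. CENPBD1 had 0.35 and 0.38 in shPABPN1, against 1 in both shU2AF2 libraries and 0.77, 0.68 and 1 in shControl (difference from shU2AF2 -0.635, SE 0.10, adjusted p = 0.00562). Of the rest, TBL3, a part of the small-subunit processome, C20orf144 and YIPF4, a Golgi membrane protein, each had all shPABPN1 libraries at 0.35 or below and all shU2AF2 libraries at 0.58 or above. Their differences were -0.515 (adjusted p = 0.000243), -0.475 (adjusted p = 0.000337) and -0.47 (adjusted p = 0.000619).

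ATP6V1C2 (a subunit of the vacuolar proton pump), JMJD7 (a hydroxylase with a JmjC domain), ZNRF3 (a ubiquitin ligase that removes Wnt receptors) and PHOSPHO1 (a phosphatase of bone mineralisation) lost their calls without at least 1 library. Without shPABPN1 replicate 1 their adjusted p was 0.0913, 0.0636, 0.0928 and 0.211, and without shU2AF2 replicate 2 it was 0.0861, 0.0604, 0.115 and 0.168. Without shPABPN1 replicate 2 those of ZNRF3 and PHOSPHO1 were 0.0688 and 0.0764, and without shU2AF2 replicate 1 those of ATP6V1C2, JMJD7 and PHOSPHO1 were 0.0765, 0.058 and 0.16. PHOSPHO1 was just under the threshold with all libraries, at an adjusted p that rounds to 0.05, and its adjusted p was 0.0552 without shControl replicate 1. Last exons of ATP6V1C2, CENPBD1, AP2A1, DBNL, TBL3, JMJD7 and C20orf144 overlap another gene (PDIA6, AFG3L1P, FUZ, PGAM2, NOXO1, JMJD7-PLA2G4B and NECAB3 in that order), and whether the authors' values used strand is not given in the sources used here, so the reads of each pair cannot be told apart.

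**Figure D2:**
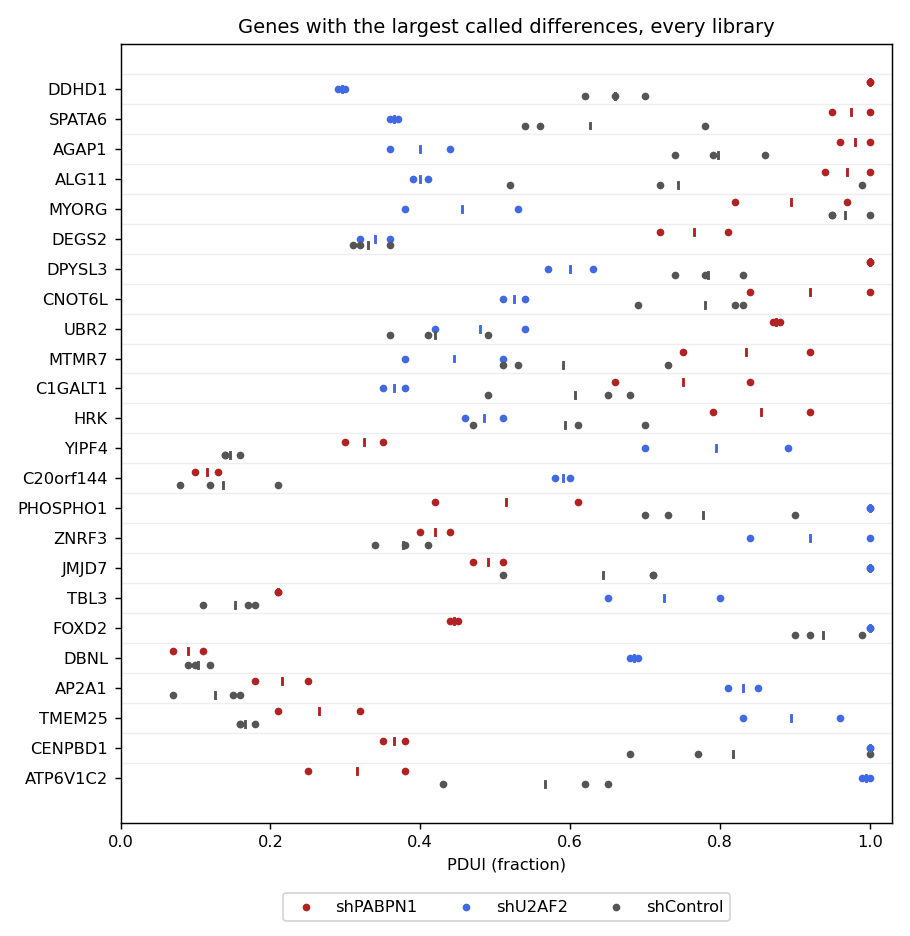
PDUI (fraction, horizontal axis) in every library of shPABPN1 (red), shU2AF2 (blue) and shControl (grey) for the 12 genes with the largest called rise and the 12 with the largest called fall in shPABPN1 against shU2AF2; short vertical bars are group means. In DBNL, AP2A1 and TMEM25 the shU2AF2 libraries stand apart from both other groups, in FOXD2, UBR2 and DEGS2 the shPABPN1 libraries do, and in DDHD1 the control lies between.

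Among genes that the gene symbol rule set aside as clone or antisense names, AC011499.1 (difference -0.725) and KCTD21-AS1 (-0.71) had the largest falls and AC020915.2 (0.635) and AC004264.1 (0.625) the largest rises. KCTD21-AS1, an antisense transcript, had 0.24 and 0.15 in shPABPN1, against 0.94 and 0.87 in shU2AF2 and 0.18, 0.26 and 0.16 in shControl (adjusted p = 0.0163). Its call was lost without each of the 4 libraries in turn, with adjusted p from 0.0547 without shPABPN1 replicate 1 to 0.0794 without shU2AF2 replicate 1. The last exons of AC011499.1, AC020915.2 and AC004264.1 overlap PRR22, ZNF544 and LIF.

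The 2 targeted genes were not called. PABPN1 itself had a PDUI of 0.58 and 0.49 in shPABPN1, against 0.55 and 0.60 in shU2AF2 and 0.51, 0.47 and 0.56 in shControl, and the other 4 knockdowns ran from 0.45 to 0.54. These groups overlapped (difference -0.04, SE 0.046, adjusted p = 0.674), and the sign turned to 0.005 with libraries centred. U2AF2 had 0.34 and 0.35 in shPABPN1, against 0.42 and 0.49 in shU2AF2 and 0.36, 0.45 and 0.43 in shControl, with 0.43 to 0.48 in the other 4 knockdowns. Its shPABPN1 values were the lowest of all 15 libraries, but the difference of -0.11 (SE 0.032) did not pass, at an adjusted p of 0.0753, while without shControl replicate 1 the same difference was called, at an adjusted p of 0.0278. Last exons of both genes overlap another gene, BCL2L2-PABPN1 and AC008735.2.

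The place of shControl was read for which knockdown stood farther away at a called gene. Its mean lay between the knockdown means at 63.5% of the higher and 60.7% of the lower genes, against 39.2% of all tested genes. With libraries centred these shares were 79.1%, 43.1% and 45.5%. Where the control lay between, both knockdown means departed from it, to opposite sides. A share above that of all genes follows in part from choosing genes whose knockdowns lie far apart. Of the 392 genes higher in shPABPN1, the shControl mean was nearer to shU2AF2 at 276 (70.4%) and nearer to shPABPN1 at 116 (29.6%). At the 585 lower genes, shControl was nearer to shPABPN1 at 452 (77.3%) and nearer to shU2AF2 at 133 (22.7%). Over all tested genes, with both directions of difference pooled, the shares were 45.4% nearer to shPABPN1 and 46.3% nearer to shU2AF2. In both directions of call the knockdown with the higher PDUI was thus more often the one farther from the control. The median PDUI of the higher genes was 0.395 in shPABPN1, against 0.235 in shU2AF2 and 0.28 in shControl. For the lower genes it was 0.25 in shPABPN1, against 0.435 in shU2AF2 and 0.25 in shControl. Without shControl replicate 1 the share nearer to shU2AF2 was 69.1% for the higher genes, and the share nearer to shPABPN1 was 68.9% for the lower genes, and with libraries centred these shares were 69.4% and 67.4%. The shControl library names carry a suffix, nuc, that the knockdown names lack and whose meaning is not stated, so a difference in preparation cannot be told apart from the control hairpin.

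Each knockdown was also set against shControl in the same fit, with the 3 control libraries shared by both contrasts. For shPABPN1 579 of 12278 genes were called (4.72%), 490 higher (3.99%) and 89 lower (0.725%), and for shU2AF2 899 of 12362 (7.27%), 727 higher (5.88%) and 172 lower (1.39%). Over the tested genes with control values the median difference from shControl was -0.01 for shPABPN1 and 0.012 for shU2AF2. Without shControl replicate 1, the low library, these medians were -0.02 and 0. The median gene of shPABPN1 thus did not share the direction of most of its calls. Counts against shControl without that library or with libraries centred are not reported here. Among the 7 groups, shPABPN1 had the highest mean at 274 of 391 genes called higher (70.1%) with a mean in every group, against 8.76% of all tested genes. At 375 of 581 genes called lower (64.5%) shU2AF2 had the highest mean of the 7, against 14.1% of all tested genes. The lowest means were also above their background. In shPABPN1 the mean was the lowest of the 7 at 303 of the 581 lower genes (52.2%), against 33.3% of all tested genes. In shU2AF2 it was the lowest at 148 of the 391 higher genes (37.9%), against 12.4%. Since the call itself needs shPABPN1 and shU2AF2 to be far apart, a share above the background follows in part from the choice.

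At 95 of the 392 higher genes (24.2%) and 95 of 578 lower genes with 3 control values (16.4%) the 2 knockdowns lay on opposite sides of all shControl libraries. That held at 0.959% and 1.28% of all tested genes in the same direction. REM2, a small GTPase that inhibits calcium channels, had 0.44 and 0.48 in shPABPN1, against 0.96 and 0.81 in shU2AF2 and 0.69, 0.64 and 0.60 in shControl (difference -0.425, SE 0.064, adjusted p = 0.00656). ABHD8, a member of the alpha/beta hydrolase family, had 0.35 and 0.23 in shPABPN1, against 0.74 and 0.69 in shU2AF2 and 0.41, 0.49 and 0.44 in shControl (difference -0.425, SE 0.058, adjusted p = 0.00275). In both, the control libraries formed a step between the knockdowns, although the last exon of ABHD8 overlaps MRPL34.

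The called genes differed in the length of the annotated last exon, which carries the 3′ untranslated region of most genes. The median was 3608 bases for genes higher in shPABPN1 and 1389 bases for genes lower, against 1391 bases for all tested genes matched to the annotation (11791 genes). In 5 groups of like size from the shortest to the longest last exon, the share of genes called higher was 0.805%, 0.762%, 1.87%, 3.22% and 9.63%. The share called lower had no such order over all levels of PDUI, at 3.9%, 5.17%, 5.52%, 3.86% and 6.02%. The group with the longest last exons, 3144 bases and over, thus held 227 of the higher genes (59.1%) and 142 of the lower genes (24.6%). With libraries centred, 191 of those 227 genes and 35 of those 142 kept their calls.

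**Figure D3:**
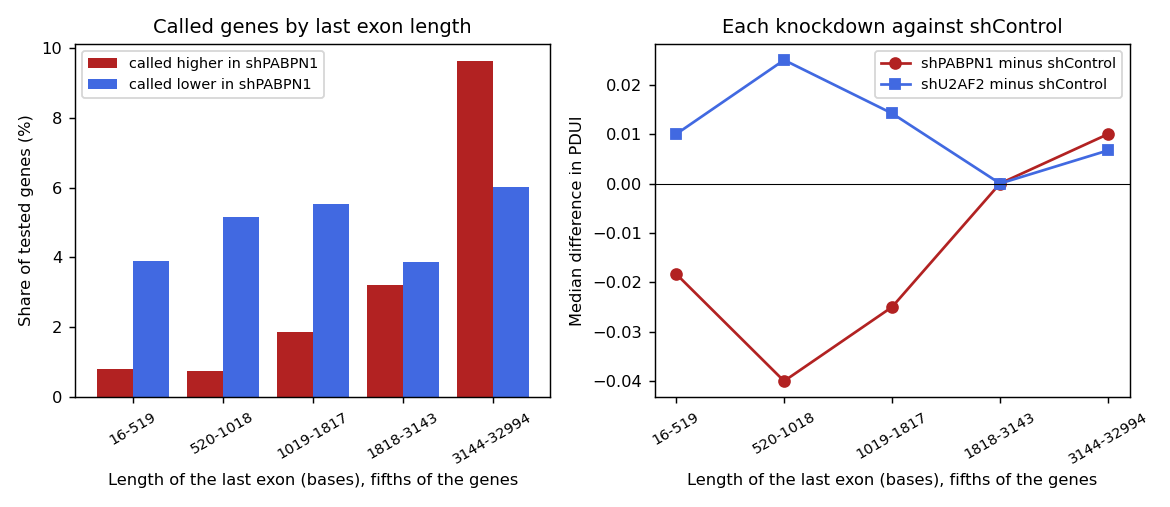
Left, share of tested genes (%, from 0) called higher (red) and lower (blue) in shPABPN1 against shU2AF2 in 5 groups of genes by last exon length in bases. Right, median difference in PDUI from shControl in the same 5 groups for shPABPN1 (red circles) and shU2AF2 (blue squares), which share the control libraries; the higher calls reach 9.63% in the group with the longest last exons, and the shPABPN1 median is -0.04 in the group of 520 to 1018 bases and 0.01 in the longest.

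Room for change differs with the level of PDUI, so the 5 groups were also read at a matched level. Among genes with a mean PDUI of 0.2 to 0.6 the share called higher was 0.779%, 0.715%, 2.85%, 6.61% and 16.6% from the shortest to the longest last exons. The share called lower rose as well at this level, over a narrower range, at 3.9%, 5.45%, 6.11%, 6.31% and 7.34%. The order by length was therefore present at a middle level in both directions. By level alone, calls were denser where distal use was low. Among genes with a mean PDUI below 0.2, 5.73% were higher and 9.75% lower, and at 0.2 to 0.4 these shares were 6.45% and 7.33%. Among genes at 0.8 and above they were 1.29% and 2.0%. Lower calls were thus densest below 0.2 and higher calls at 0.2 to 0.4. In 32 of the higher genes both shPABPN1 libraries were at 1, and in 35 of the lower genes both shU2AF2 libraries were at 1. A higher value of that knockdown could not have been recorded there.

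Signal and overlap differed as well. AATAAA lay in the last 50 bases of the annotated transcript, searched on the transcript strand, in 68.5% of higher genes and 54.1% of lower genes, against 60.9% of all tested genes. Neither AATAAA nor ATTAAA was found there in 20.6% of higher and 32.6% of lower genes, against 25.0% of all. Another gene overlapped the last exon by at least 1 base in 22.7% of higher and 31.4% of lower genes, against 25.8% of all, and the part of that overlap in the differences was not tested. By gene type, 362 protein-coding genes were higher and 526 lower of 10437 (3.47% and 5.04%), near the 3.24% and 4.84% of all tested genes. Of 622 antisense genes 10 were higher and 33 lower (1.61% and 5.31%), so only the higher share was well below that of all genes. Long intergenic RNAs had 5 higher and 6 lower of 357 (1.4% and 1.68%), both shares below those of all tested genes.

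Genes of 21 lists, 756 genes in all, were then read for their functions. Among them 53 were higher and 55 lower in shPABPN1, 14.3% of the members against 8.09% of all tested genes, and their median difference was -0.015 against -0.02. By list the share called ran from 4.76% for mRNA export to 23.9% for growth signalling. The background for every list below is 8.09% of all tested genes called, 3.24% higher and 4.84% lower. The lists were chosen with earlier results of these data known, so a share above the background is a description of the choice as much as of the genes. Their calls were also sensitive to centring, under which 62 of the members were called, and to single libraries, since leaving out 1 of the 4 gave 53 to 71 (53 without shU2AF2 replicate 1, 64 without shU2AF2 replicate 2, 65 without shPABPN1 replicate 1 and 71 without shPABPN1 replicate 2). Of the 73 members named by the rule in the methods, 40 kept their calls in all 4 of these fits. Among those named below, SF3A1, SF3B1, RBM5, SRSF12, SRSF1, SYNCRIP, DIS3, NXF1, CDK9, SUPT16H, NELFA, TNRC6B, GIGYF2 and ATXN10 lost their calls without at least 1 library, with a highest adjusted p from 0.0872 (SF3A1, without shPABPN1 replicate 2) to 0.231 (CDK9, without shU2AF2 replicate 2).

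**Figure D4:**
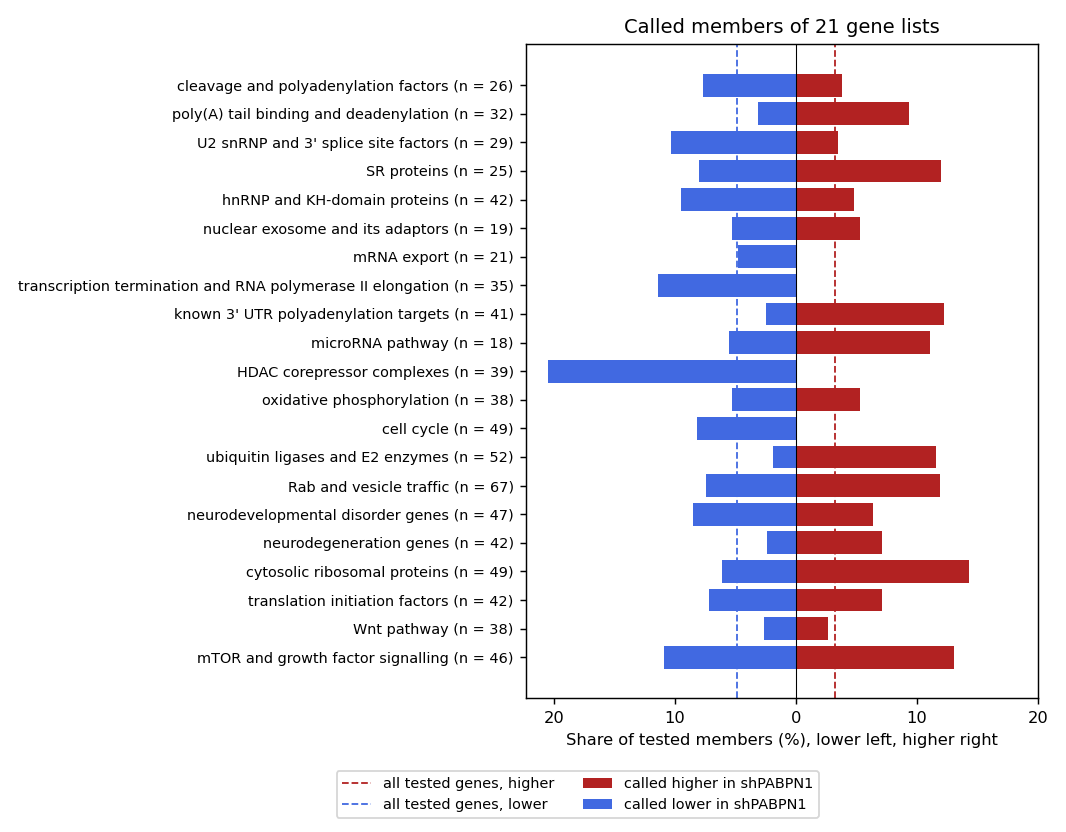
Share of the tested members of each of 21 gene lists (%, n beside the name) called higher in shPABPN1 than in shU2AF2 (red, to the right) or lower (blue, to the left). Dashed lines are the shares over all tested genes, 3.24% higher and 4.84% lower; the histone deacetylase corepressor list has 8 lower and 0 higher members, of which 4 stay called with libraries centred.

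Of 26 cleavage and polyadenylation factors 1 was higher, 2 were lower and 23 did not pass (median -0.02). CPSF6, a subunit of cleavage factor I that binds UGUA upstream of distal sites, had a PDUI of 1 in both shPABPN1 libraries, against 0.77 and 0.78 in shU2AF2 and 0.59, 0.64 and 0.56 in shControl. The shPCBP2 libraries, at 0.86 and 1, and the shZNF384 libraries, at 0.91 and 0.84, were also above shControl. It was the shPABPN1 libraries that lay farthest from the control (difference from shU2AF2 0.225, SE 0.048, adjusted p = 0.0229), but the adjusted p was 0.0886 to 0.0985 without each of the 4 libraries in turn. WDR33, which reads the AAUAAA signal, differed by -0.08 (adjusted p = 0.031) and INTS11, the nuclease of the Integrator complex, by -0.135 (adjusted p = 0.0185). Last exons of CPSF6, WDR33 and INTS11 overlap MIR1279, SFT2D3 and PUSL1. Both lower calls were lost with libraries centred (adjusted p 0.524 and 0.201) and without shPABPN1 replicate 1 (0.159 and 0.0965), shU2AF2 replicate 1 (0.134 and 0.0595) or shU2AF2 replicate 2 (0.0996 and 0.0977).

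Among 32 genes of poly(A) tail binding and deadenylation 3 were higher and 1 was lower (median -0.005). The higher ones were CNOT6L, described above, its paralog CNOT6 (0.66 and 0.73 in shPABPN1, against 0.52 and 0.54 in shU2AF2) and MSI2, a Musashi RNA-binding protein (1 in both shPABPN1 libraries, against 0.85 and 0.76 in shU2AF2). CNOT6 had 0.62, 0.68 and 0.69 in shControl, and shU2AF2 lay below both shPABPN1 and shControl, while shSF3B4 was lower still at 0.46 and 0.45. The lower one was CNOT11, a scaffold of CCR4-NOT, with 0.70 and 0.78 in shPABPN1, against 0.97 and 0.95 in shU2AF2 and 0.77, 0.86 and 0.85 in shControl (difference -0.22, SE 0.034, adjusted p = 0.0047). Calls of CNOT6 (difference 0.165, adjusted p = 0.0247) and MSI2 (0.195, adjusted p = 0.0218) were lost without shPABPN1 replicate 2 (0.122 and 0.0826) and shU2AF2 replicate 2 (0.0895 and 0.12), that of CNOT6 also without shU2AF2 replicate 1 (0.118) and that of MSI2 also without shPABPN1 replicate 1 (0.0891).

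In the nuclear exosome list 1 of 19 genes was higher and 1 lower. EXOSC6, a ring subunit of the exosome, had the smallest p of all tested genes. Its PDUI was 0.40 and 0.42 in shPABPN1, against 0.15 and 0.14 in shU2AF2 and 0.26, 0.26 and 0.25 in shControl. The 3 groups did not overlap and the control lay between (difference 0.265, SE 0.0099, adjusted p = 6.82e-06). Both knockdowns differed from shControl, shPABPN1 by 0.153 (adjusted p = 5.64e-05) and shU2AF2 by -0.112 (adjusted p = 0.000117), and the other 4 knockdowns ran from 0.20 to 0.31. No other gene overlaps its last exon of 5153 bases. DIS3, the catalytic nuclease of the exosome, was at 0.09 and 0.08 in shPABPN1, against 0.12 in both shU2AF2 libraries, a difference of -0.035 (adjusted p = 0.026) that turned to 0.01 with libraries centred.

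SR proteins, which bind exonic enhancers, had 3 higher and 2 lower of 25 genes (median -0.01). SREK1 had 0.38 and 0.40 in shPABPN1, against 0.29 and 0.30 in shU2AF2 and 0.30, 0.29 and 0.31 in shControl, so shPABPN1 stood above the other 2 groups (difference 0.095, SE 0.013, adjusted p = 0.00221). SRSF11 had 0.26 and 0.23 in shPABPN1, against 0.16 and 0.17 in shU2AF2 and 0.21, 0.21 and 0.20 in shControl, with the control between them (difference 0.08, SE 0.012, adjusted p = 0.00462). SRSF12 was the third higher gene, and SRSF1 and TRA2A were lower, both without a call when libraries were centred. Of 29 U2 snRNP and 3′ splice site factors, the partners of U2AF2, 1 was higher and 3 were lower (median -0.045). RBM17 had 0.38 and 0.39 in shPABPN1, against 0.26 in both shU2AF2 libraries and 0.35, 0.28 and 0.28 in shControl (difference 0.125, SE 0.022, adjusted p = 0.00861). The lower genes SF3A1, SF3B1 and RBM5 differed by -0.045, -0.025 and -0.085, and none stayed called with libraries centred, where SF3B1 turned to 0.02. Of 42 hnRNP and KH-domain proteins 2 were higher (HNRNPL and SYNCRIP) and 4 lower (14.3% called). Of 21 export factors only NXF1, the main export receptor, was called, as lower (4.76%, against 8.09% of all tested genes). None of the 4 lower genes of the hnRNP list nor NXF1 (adjusted p = 0.292) stayed called with libraries centred. Other genes overlap the last exons of RBM5, SRSF1, SYNCRIP and DIS3.

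Transcription termination and elongation factors had 4 lower and 0 higher genes of 35 (11.4%, against 4.84% lower of all tested genes, median -0.055). CDK9, SUPT16H and NELFA were among the 4, and none of the 4 was called with libraries centred. Genes of histone deacetylase corepressor complexes had 8 lower and 0 higher of 39 (20.5%, against 4.84% lower of all tested genes, median -0.055). HDAC1 had 0.72 and 0.58 in shPABPN1, against 1 in both shU2AF2 libraries and 0.67, 0.84 and 0.82 in shControl. HDAC3 had 0.26 and 0.25 in shPABPN1, against 0.41 in both shU2AF2 libraries and 0.30, 0.35 and 0.36 in shControl. The knockdowns did not overlap in either gene, and the shControl range overlapped shPABPN1 in HDAC1 and lay between the knockdowns in HDAC3. The differences were -0.35 (SE 0.057, adjusted p = 0.00649) and -0.155 (SE 0.019, adjusted p = 0.00152). CHD3, a remodeller of the NuRD complex, differed by -0.165 (SE 0.021, adjusted p = 0.00171). HDAC2 was at 0.01 in both shPABPN1 libraries, against 0.05 in both shU2AF2 libraries and 0.01 in every other library. The difference was -0.04 (adjusted p = 3.14e-05), and it became 0.005 with libraries centred, a shift of 0.045 that all genes share. Its values were equal within every group at 2 decimals. The SE of 0.0022 behind its adjusted p thus came from the eBayes prior and not from a spread of its own. With libraries centred 4 of the 8 remained called.

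Genes long studied for alternative 3′ ends had 5 higher and 1 lower of 41 (median 0). CD47, a membrane protein whose long 3′ end is known to guide its protein to the cell surface, had 0.58 and 0.52 in shPABPN1, against 0.35 and 0.34 in shU2AF2 and 0.31, 0.26 and 0.25 in shControl. The shU2AF2 libraries also lay above every shControl library, as did those of shPCBP2 (0.39 and 0.33) and shZNF384 (0.37 and 0.39), and shPABPN1 lay above all of these (difference from shU2AF2 0.205, SE 0.029, adjusted p = 0.00307). CSNK1A1, casein kinase 1 alpha, had 0.48 and 0.47 in shPABPN1, against 0.30 and 0.31 in shU2AF2 and 0.40, 0.43 and 0.37 in shControl. Its control values formed the step between the knockdowns (difference 0.17, SE 0.019, adjusted p = 0.000986), although shPCBP2 and shZNF384 reached 0.48 and 0.49 and AC021078.1 overlaps the last exon. AKT2 and HSPA4 were also higher, by 0.075 (adjusted p = 0.00172) and 0.165 (adjusted p = 0.000936), and all 5 higher genes stayed called with libraries centred. RHEB, the GTPase that activates mTORC1, was the lower one, by -0.06 (adjusted p = 0.00512), without a call when centred (adjusted p = 0.745).

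Growth signalling genes had 6 higher and 5 lower of 46 (23.9% called, against 8.09% of all tested genes, median -0.0075). RPS6KB2, an S6 kinase, had 0.44 in both shPABPN1 libraries, against 0.95 and 0.84 in shU2AF2 and 0.43, 0.52 and 0.50 in shControl. Here shU2AF2 stood apart from all other groups, of which the highest value was 0.64 in shSF3B4 (difference -0.455, SE 0.043, adjusted p = 0.00039), and RPS6KB2-AS1 overlaps the last exon. TSC1, an inhibitor of the mTORC1 pathway, had 0.59 and 0.74 in shPABPN1, against 1 in both shU2AF2 libraries and 0.58, 0.59 and 0.64 in shControl (difference -0.335, SE 0.056, adjusted p = 0.0078). Beside shU2AF2, the shSF3B4 libraries were at 0.97 and 1. RPS6KB1, the other S6 kinase, and LAMTOR3, PIK3C3, IGF1R, SOS1 and AKT2 were higher. Among 42 translation initiation factors 3 were higher and 3 lower. EIF4EBP2, a repressor of cap binding, had 0.68 and 0.67 in shPABPN1, against 0.42 in both shU2AF2 libraries and 0.35, 0.42 and 0.40 in shControl, and shPABPN1 was above every other library (difference 0.255, SE 0.023, adjusted p = 0.000315). EIF3F and EIF3C, subunits of eIF3, were at 0.04 and 0.08 in both shPABPN1 libraries, against 0.15 and 0.13 for EIF3F and 0.21 and 0.18 for EIF3C in shU2AF2. Their shControl values were 0.02 in all 3 libraries for EIF3F and 0.03 to 0.05 for EIF3C, so shU2AF2 was the group farther from the control (differences -0.10 and -0.115, adjusted p 0.000129 and 0.000368), and both calls were lost with libraries centred (0.198 and 0.127).

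**Figure D5:**
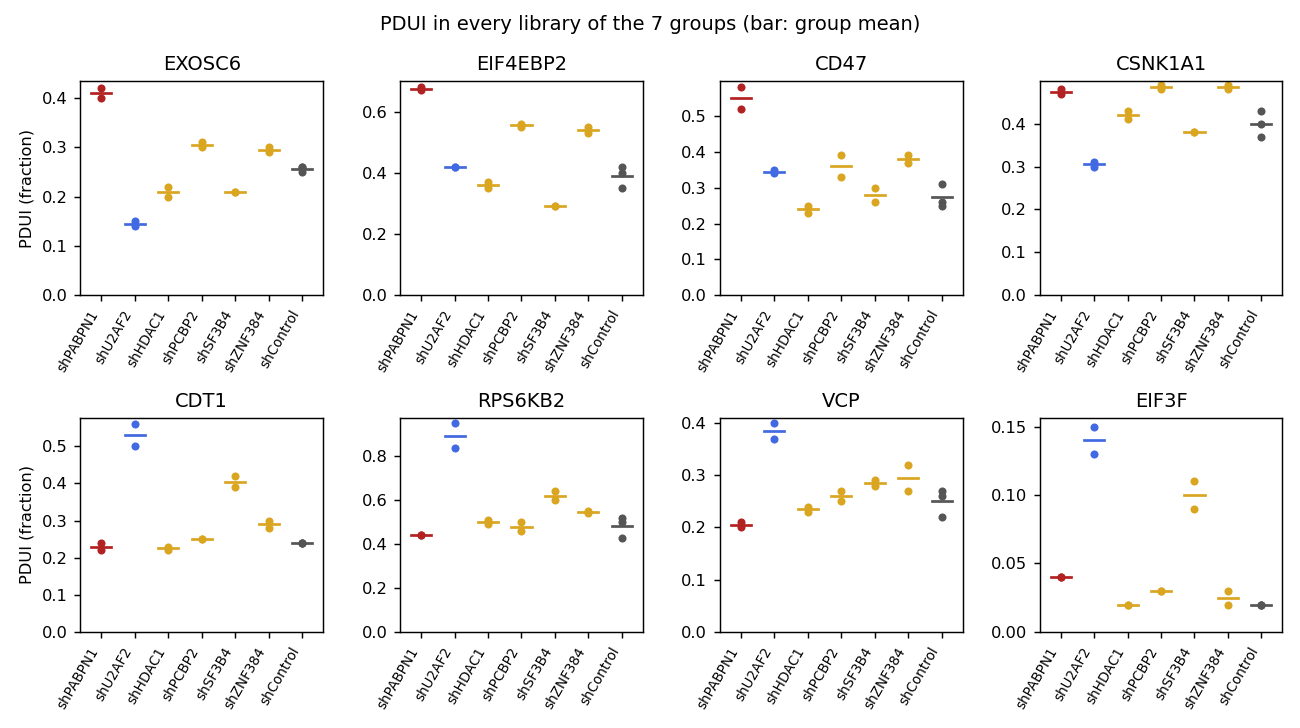
PDUI (fraction, vertical axes from 0) in every library of the 7 groups for 8 genes, with a bar at each group mean; EXOSC6, EIF4EBP2, CD47 and CSNK1A1 were higher in shPABPN1 than in shU2AF2 and CDT1, RPS6KB2, VCP and EIF3F were lower. In CDT1 and EIF3F the shSF3B4 libraries stand next below shU2AF2, at 0.39 and 0.42 and at 0.09 and 0.11.

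Cytosolic ribosomal proteins had 7 higher and 3 lower genes of 49 (20.4% called, against 8.09% of all tested genes, median 0), mostly at low PDUI. RPL37 had 0.37 and 0.31 in shPABPN1, against 0.21 and 0.16 in shU2AF2 and 0.14, 0.10 and 0.11 in shControl (difference 0.155, SE 0.023, adjusted p = 0.00391). RPS15A had 0.11 and 0.10 in shPABPN1, against 0.06 and 0.05 in shU2AF2 and 0.03 in all 3 shControl libraries (difference 0.05, SE 0.0048, adjusted p = 0.0004). In both genes the order was shPABPN1, shU2AF2, shControl, and 3 of the 7 higher genes stayed called with libraries centred. Ribosomal protein genes have many processed pseudogenes, and how reads shared with them were counted is not given in the sources used here. Oxidative phosphorylation genes had 2 higher and 2 lower of 38, among them NDUFV3 of complex I with 0.29 and 0.33 in shPABPN1, against 0.21 and 0.22 in shU2AF2 (difference 0.095, SE 0.014, adjusted p = 0.00335).

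Cell cycle genes had 4 lower and 0 higher of 49 (median -0.045), of which CDT1 and CDKN1A stayed called with libraries centred. The share called, 8.16%, was near the 8.09% of all tested genes. CDT1, which loads the replicative helicase, had 0.22 and 0.24 in shPABPN1, against 0.56 and 0.50 in shU2AF2 and 0.24 in all 3 shControl libraries. The shPABPN1 and shControl values overlapped and shU2AF2 stood apart (difference -0.30, SE 0.018, adjusted p = 4.66e-05). CDKN1A, the inhibitor p21, differed by -0.23 (SE 0.054, adjusted p = 0.0337), but its adjusted p was 0.0658 to 0.162 without each of the 4 libraries in turn.

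Ubiquitin ligases and E2 enzymes had 6 higher and 1 lower of 52 (13.5% called, against 8.09% of all tested genes, median -0.0025). All 6 higher genes stayed called with libraries centred. TRIM33, a ligase of SMAD signalling, had 1 in both shPABPN1 libraries, against 0.70 and 0.62 in shU2AF2 and 0.99, 0.96 and 0.92 in shControl (difference 0.34, SE 0.041, adjusted p = 0.00142). The E2 enzyme UBE2H had 1 in both shPABPN1 libraries, against 0.88 and 0.81 in shU2AF2 and 1, 0.98 and 1 in shControl (difference 0.155, SE 0.021, adjusted p = 0.00275). In both genes shControl lay near shPABPN1 and shU2AF2 below, together with shSF3B4, which had 0.65 and 0.57 for TRIM33 and 0.85 and 0.81 for UBE2H. UBE2L3, UBE2K and UBE2R2 were also higher, and UBE2K lost its call without shU2AF2 replicate 2 (adjusted p = 0.0542).

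Rab and vesicle traffic genes had 8 higher and 5 lower of 67 (19.4% called, against 8.09% of all tested genes, median -0.01). RAB21 had 0.34 and 0.40 in shPABPN1, against 0.22 and 0.21 in shU2AF2 and 0.28, 0.31 and 0.29 in shControl, with the control between (difference 0.155, SE 0.019, adjusted p = 0.0017), although AC089984.1 overlaps its last exon. SNX6, a sorting nexin of the retromer pathway, had 0.64 and 0.59 in shPABPN1, against 0.86 in both shU2AF2 libraries and 0.63, 0.61 and 0.57 in shControl, with shU2AF2 apart (difference -0.245, SE 0.034, adjusted p = 0.00302, and 0.0564 with libraries centred). RAB22A was higher by 0.125 (adjusted p = 0.00294). Neurodevelopmental disorder genes had 3 higher and 4 lower of 47 (14.9% called, against 8.09% of all tested genes, median 0). SMC1A, a cohesin subunit, had 0.11 and 0.12 in shPABPN1, against 0.21 in both shU2AF2 libraries and 0.10, 0.11 and 0.09 in shControl (difference -0.095, SE 0.0062, adjusted p = 6.17e-05, and 0.267 with libraries centred). NSD1, a histone H3 lysine methyltransferase, had 0.53 and 0.57 in shPABPN1, against 0.80 and 0.83 in shU2AF2 and 0.52, 0.55 and 0.59 in shControl (difference -0.265, SE 0.034, adjusted p = 0.00179). In both genes shU2AF2 stood apart from shPABPN1 and shControl.

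Of 42 neurodegeneration genes 3 were higher and 1 lower (9.52% called, against 8.09% of all tested genes, median -0.025). VCP, the AAA ATPase p97, had 0.21 and 0.20 in shPABPN1, against 0.40 and 0.37 in shU2AF2 and 0.22, 0.27 and 0.26 in shControl (difference -0.18, SE 0.02, adjusted p = 0.00102). ATXN10 was among the higher genes, by 0.035 (adjusted p = 0.0316), and none of the 3 stayed called with libraries centred. The microRNA pathway had 2 higher (TNRC6B and GIGYF2) and 1 lower (MOV10, not called with libraries centred) of 18 (16.7% called). The Wnt pathway had CSNK1A1 higher and ZNRF3 lower of 38 (5.26%, below the share over all tested genes).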

How the data were processed

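The authors deposited 1 table of PDUI values in the unit fraction, which run from 0.001 to 1 with 2 decimals, on genome build hg38 per the submitters' processing notes. Neither the aligner nor the site caller, the annotation or any use of strand is named in the sources used here. Read counts are not part of that table, so depth is unknown and no interval resting on it was computed. The fractions were used without transformation or pseudocount in limma 3.58.1 (R 4.3.3). All 15 libraries were fitted with 1 mean per group and eBayes with a trend on the mean (8 residual degrees of freedom for a gene with every value, prior 1.06). The two-sided contrast was shPABPN1 minus shU2AF2, adjusted by Benjamini-Hochberg over the 12083 genes with a value in all 4 libraries, and called at an adjusted p under 0.05. Library means were compared by an exact permutation test in scipy 1.17.1. The fit was tested on simulated data with no shift between libraries and 50 changed genes of each size at middle PDUI. It called 4% of those differing by 0.1, 22% at 0.2, 38% at 0.3 and 68% at 0.4. Of its 69 calls 3 were false. A gene that did not pass may therefore still differ.

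The columns of shSF3B4 were assigned to the group only, because the labels number its replicates in 2 ways. Transcripts were matched by identifier to GENCODE release 29 (97.3% found), which gave last exons, gene types, overlaps and end windows. Sequences are from that release and were searched for AATAAA and ATTAAA on the transcript strand. Gene lists were read by counts and medians, with no set test. Named genes were the 12 largest called rises and falls whose libraries do not overlap (clone, LINC and antisense names apart, with 2 of those each way), up to 4 called members of each list by smallest p, the 2 targets, and the 5 largest each way with the knockdowns on opposite sides of all shControl libraries. Values of some called list members are not reported here. Other list members named only in counts were taken from the called members. Members, lists and tests were chosen with earlier results of these data known. Of 11 markers of blood, endothelium, fibroblasts and neural cells 2 were in the table, and nothing was read from them because PDUI does not measure RNA level.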

Additional observations from a re-analysis of the deposited data

Results flagged for a closer look

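The 10 genes flagged here are the 5 largest differences each way among called genes with 1 pattern, clone and antisense names apart. In that pattern every shPABPN1 library lay on one side of all shControl libraries and every shU2AF2 library on the other. Further named genes, EXOSC6 among them, had the same pattern at smaller differences. Whether the 2 departures from shControl differ is the contrast of the knockdowns itself, and each gene passed it, but the genes were picked from the called ones and share the control libraries. The PDUI of shPABPN1 minus that of shU2AF2 was 0.705 in DDHD1, 0.61 in SPATA6, 0.58 in AGAP1, 0.40 in DPYSL3 and 0.395 in CNOT6L, with shPABPN1 above and shU2AF2 below the control. It was -0.68 in ATP6V1C2, -0.555 in FOXD2, -0.485 in PHOSPHO1 and -0.425 in both REM2 and ABHD8, with shPABPN1 below and shU2AF2 above. The margin on one side was narrow in FOXD2, where shU2AF2 was at 1 and the highest shControl library at 0.99. In CNOT6L it was narrow as well, with a shPABPN1 library at 0.84 and the highest shControl library at 0.83. In DDHD1 each knockdown also passed its own contrast with shControl (0.34, adjusted p = 0.00117, for shPABPN1 and -0.365, adjusted p = 0.00043, for shU2AF2), and no other of the 10 passed both. Outside the 10, EXOSC6, CSNK1A1, RAB21 and HDAC3 had the pattern and passed both, so DDHD1 was not alone among the named genes. Of the 10 themselves, the remaining genes passed 1 contrast or neither. Neither contrast passed in ATP6V1C2, DPYSL3 and PHOSPHO1, with adjusted p of 0.289, 0.0542 and 0.268 for shPABPN1 and 0.0683, 0.0796 and 0.339 for shU2AF2, and in the rest 1 of the 2 did.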

How the results depend on the processing

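Calls depended on the libraries and scaling used. Of 977 genes (392 higher, 585 lower in shPABPN1), 533 were called with libraries centred on their medians (402 and 131) and 786 with libraries shifted by their median deviation (478 and 308, chosen after seeing the data); 364 (156 and 208) passed an adjusted p under 0.01, and the 4 libraries alone gave 0 calls, 0 in each direction, 0 of the named genes and 0 list members. Leaving out 1 library gave 531 to 1422 calls, 193 to 433 higher and 321 to 989 lower, with 60 to 99 of 100 called named genes and 53 to 162 list members against 108; centring left 62 list members. The median difference of -0.02 became 0.025 centred, 0.001 shifted, -0.035 among genes with a mean PDUI of 0.05 to 0.95, and -0.025 to -0.015 without 1 library. The library mean difference of -0.0303 became 0.0147 centred and ran from -0.0351 to -0.0255 without 1 library. The share of called genes with shControl nearer to shPABPN1, 58.1%, was 53.3% without shControl replicate 1 and 47.4% among the genes called with libraries centred. Centring raised the difference of every gene by 0.045, and by this shift alone the sign of 55 of the 977 called genes turned. Among the named genes it turned for SF3B1 (0.02), HNRNPD (0.02), TIAL1 (0.01), DIS3 (0.01), HDAC2 (0.005), MCM2 (0.015) and PABPN1 (0.005). The difference of PABPN1 ran from -0.085 to 0.005 without 1 library. Why the library medians differ was not tested. The logit scale, eBayes without the trend, robust eBayes, a mean PDUI of 0.05 to 0.95, genes with every value and leaving out genes of no spread gave 858 to 1023 calls. The replicate numbers did not pair the libraries (r = -0.025 across 12083 genes between the replicate differences of the 2 knockdowns), and the fit with a replicate block called 935 genes, 380 higher and 555 lower. With 2 libraries a group and no read counts, depth limits on single values are unknown.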

Other observations

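Genes with a ZNF symbol, most of them zinc finger transcription factors, numbered 316 among the tested genes. Of these, 10 were higher (3.16%) and 7 lower (2.22%) in shPABPN1 than in shU2AF2, with a median difference of -0.0025, against 3.24% and 4.84% of all tested genes. These counts were taken as values, with no test.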
